A study of Mus musculus with 14 samples.

Results

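Expression of 8 transcription factors that carry the output of the circadian clock was followed in mouse liver and kidney under a normal and a high salt diet. The factors are Dbp, Tef, Hlf, Nfil3, Ciart, Bhlhe40, Bhlhe41 and Rora, chosen by gene symbol, and each has 1 row among the 19660 genes of the liver count table and 1 row among the 20203 genes of the kidney count table. All 8 passed the filter on low counts in both tissues. The animals were adult male mice of 12 weeks, and all of them, controls included, had the human AGT gene (angiotensinogen) as a transgene with the -6A promoter haplotype. RNA was sequenced from 4 liver libraries per diet and 3 kidney libraries per diet, 14 libraries in 4 groups. As the labels give them, the groups differ in tissue and in diet: normal diet liver, high salt liver, normal diet kidney and high salt kidney. There were no mice without the transgene among these samples. The strain, the salt content and length of the diet and the hour of tissue collection are not given in the sources used here.

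The circadian clock is a loop in which CLOCK and BMAL1 (the product of Arntl) switch on genes through a DNA element called the E-box, among them the Per and Cry repressors that later silence the loop. Output factors pass this rhythm on. DBP, TEF and HLF, the PAR bZIP proteins, activate genes through the D-box element, and NFIL3 represses through the same element, while RORA activates and the REV-ERB proteins (Nr1d1, Nr1d2) repress through the RORE. CIART, BHLHE40 and BHLHE41 are repressors of CLOCK and BMAL1 activity. In liver this network times detoxification, bile acid and lipid genes, and in kidney it times sodium and water handling.

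Libraries are numbered as in their titles, 1 to 4 for normal diet liver and 1 to 3 for each kidney group. For high salt liver the column names HS5 to HS8 are kept, because their numbers match no title. Total counts ran from 37267778 to 51487382 in liver and from 16046094 to 22004927 in kidney. The tissue labels were borne out by marker genes: the 4 hepatocyte markers summed to 42660 to 100200 CPM (counts scaled to library size) in liver and to 34.0 to 101.7 in kidney, and the 4 proximal tubule markers summed to 1739 to 3003 CPM in kidney and to 0.475 to 7.46 in liver. Some liver libraries stood apart. Normal diet libraries 1 and 2 had 2.30% and 2.06% of their counts on mitochondrial genes, against 29.6% and 18.7% in libraries 3 and 4 and 11.3% to 19.2% on high salt. Normal diet library 4 had 87280 CPM of 12 acute phase genes against 8381 to 14060 in the other normal diet libraries, and 53.5 CPM of 3 neutrophil markers against at most 1.41 in any other liver library. HS5 and HS6 were nearly the same, with a chi-square of 1.60 per gene between their counts against 9.90 to 61.2 for the other pairs within a liver group. The labels do not say that the libraries came from separate animals, so p-values measure the spread between these samples.

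The stretches of DNA upstream of 4 of the genes are given here because Hlf, Nfil3 and Rora showed the largest diet differences in liver, and Ciart the largest difference between tissues. RefSeq promoter windows (GRCm38.p6, 250 bases before to 50 after a start site) were found for 7 of the 8 genes, all but Bhlhe40, with 2 windows for Tef. Each was searched on both strands for the E-box CACGTG, the D-box TTATGTAA or TTACGTAA, the RORE TAGGTCA or TGGGTCA, and the cyclic AMP response element TGACGTCA. Only the 250 bases before the start are printed, 5′ to 3′ on the gene's strand, with matches in capitals. The regions are chr3:95882229-95882478 on the minus strand for Ciart, chr13:52981040-52981289 on the minus strand for Nfil3, chr11:90390918-90391167 on the minus strand for Hlf and chr9:68653536-68653785 on the plus strand for Rora.
Ciart: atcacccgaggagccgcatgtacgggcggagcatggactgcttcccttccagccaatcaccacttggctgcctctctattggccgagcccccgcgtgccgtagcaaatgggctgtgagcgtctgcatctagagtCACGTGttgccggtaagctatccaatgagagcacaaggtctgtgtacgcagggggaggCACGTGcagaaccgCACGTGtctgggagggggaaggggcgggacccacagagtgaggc
Nfil3: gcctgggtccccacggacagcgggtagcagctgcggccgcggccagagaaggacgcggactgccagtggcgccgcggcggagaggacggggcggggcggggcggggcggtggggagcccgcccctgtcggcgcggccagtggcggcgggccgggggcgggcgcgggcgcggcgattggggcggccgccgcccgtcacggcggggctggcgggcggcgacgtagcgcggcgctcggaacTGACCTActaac
Hlf: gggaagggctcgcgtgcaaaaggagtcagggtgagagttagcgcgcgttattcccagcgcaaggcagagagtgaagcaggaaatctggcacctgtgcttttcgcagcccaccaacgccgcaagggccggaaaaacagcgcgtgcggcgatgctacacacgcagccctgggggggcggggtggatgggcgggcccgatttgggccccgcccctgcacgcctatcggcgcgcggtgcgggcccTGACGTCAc
Rora: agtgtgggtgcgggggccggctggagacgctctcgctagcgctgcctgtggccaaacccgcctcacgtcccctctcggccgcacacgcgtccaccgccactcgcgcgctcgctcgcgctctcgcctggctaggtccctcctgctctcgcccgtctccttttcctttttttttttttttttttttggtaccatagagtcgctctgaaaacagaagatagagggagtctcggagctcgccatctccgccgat
The Ciart window held 3 E-boxes, beginning 116, 58 and 44 bases before the start. Of 32851 promoters of this length, 7.15% held an E-box and 29 (0.0883%) held 3 or more. The Nfil3 window held 1 RORE on the opposite strand 12 bases before the start, an element found in 6.45% of promoters. The Hlf window held 1 cyclic AMP response element 9 bases before the start, against 1.79% of promoters. Both Tef windows held an E-box (127 bases before the start in the first), and the Bhlhe41 window held 1 at 153 bases. No D-box, which 1.06% of promoters held, was found in any of the 8 windows, and the Dbp and Rora windows held none of the elements. These are matches of letters in short windows and not measured binding sites. Which start sites were used in liver or kidney was not tested.

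In liver, Hlf rose on high salt and was the 1 factor of 8 past the threshold over all genes. Its level went from 23.3 ± 1.97 to 43.1 ± 6.21 CPM (SD, n = 4 each), 1.85-fold. Rora and Tef were also above the whole normal diet range in every high salt library, and Nfil3 was below it in every one, but none of these 3 passed the threshold. Dbp, Ciart, Bhlhe40 and Bhlhe41 overlapped between the diets. Across all genes tested in liver, 1.00% passed the adjusted threshold (edgeR quasi-likelihood test, Benjamini-Hochberg adjusted p under 0.05) and 0.595% passed it as higher. The diets did not overlap for 4 of 8 factors, against 12.5% of all genes (3 above, against 6.42%, and 1 below, against 6.03%), and 4 of 8 had an unadjusted p under 0.05, against 21.2%. With HS5 and HS6 summed 3 of 8 had an unadjusted p under 0.05 (13.4% of all genes), and without normal diet libraries 1 and 2, or without library 4, 4 of 8 did (16.1% and 28.5%). The median log2 fold change was 0.40 over the 8 factors and -0.023 over all genes.

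**Figure D1:**
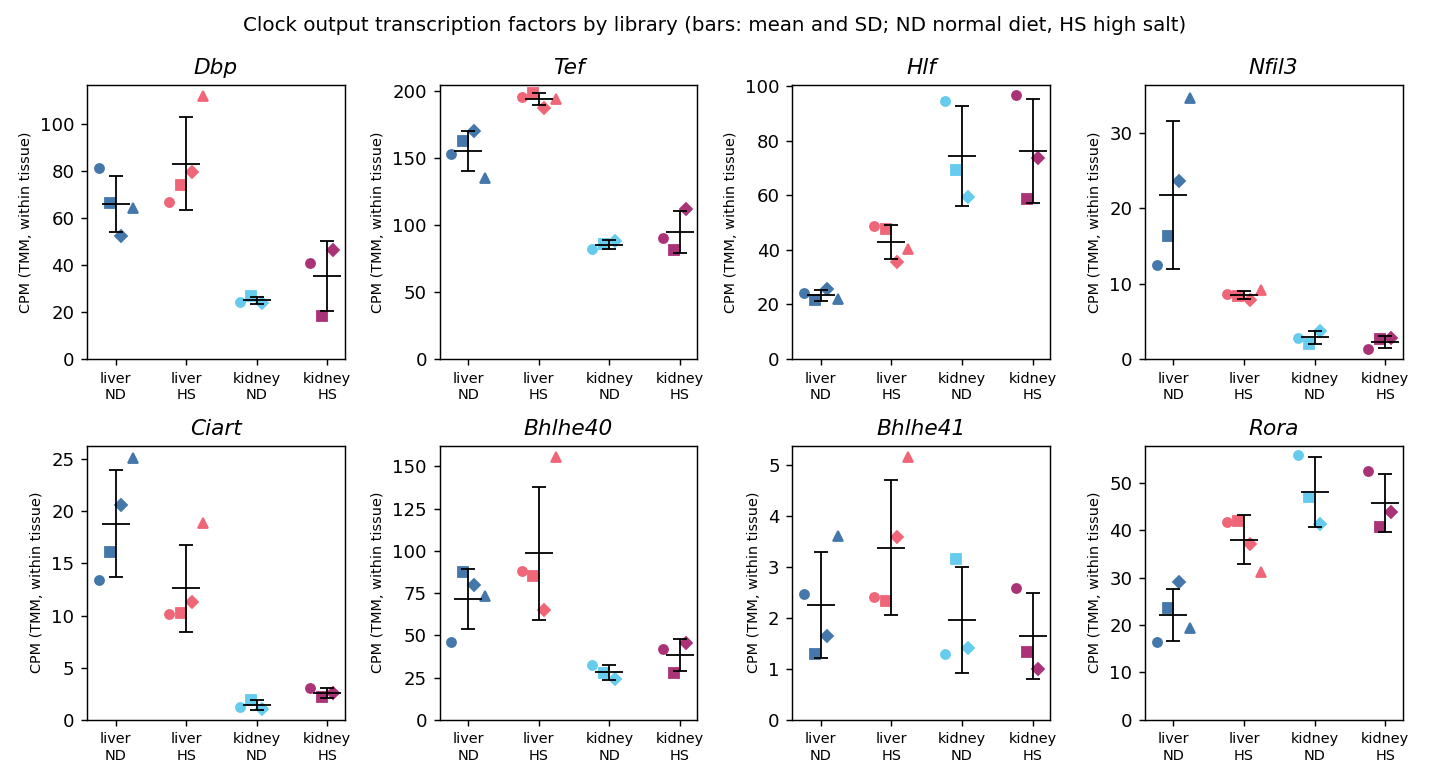
CPM of each factor in every library (TMM-scaled within a tissue), by tissue and diet; symbols are libraries in the order of their numbers, and bars give the mean and SD. In liver the 4 high salt libraries lie above all 4 normal diet libraries for Tef, Hlf and Rora and below them for Nfil3.

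The PAR bZIP activators are the D-box arm of the clock. Hlf stood at 24.0, 21.7, 25.8 and 21.8 CPM in normal diet liver libraries 1 to 4 and at 48.7, 47.5, 35.5 and 40.5 in HS5 to HS8. The normal diet values were within a narrow band and every high salt value was above it. The log2 fold change was 0.88 (SE 0.15, edgeR adjusted p = 0.0364), in the same direction in all 4 high salt libraries. HS5 and HS6, the nearly identical pair, were the highest, and with their counts summed to 1 library the log2 fold change was 0.83 (adjusted p = 0.1597). The call was also lost without normal diet libraries 1 and 2 together (0.86, adjusted p = 0.0991) and without normal diet library 1 (0.0968), normal diet library 2 (0.0950), HS5 (0.154), HS6 (0.158) or HS8 (0.105), so it held in 9 of 16 alternatives, with adjusted p-values from 2.52e-05 to 0.1597.

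Tef, which shares the D-box with Hlf, stood at 153, 163, 170.2 and 135 CPM on the normal diet and at 196, 199, 188 and 194 on high salt. The high salt libraries were close together and above the highest normal diet library. Its log2 fold change was 0.32 (SE 0.14, edgeR adjusted p = 0.224). Dbp, named for its binding to the albumin promoter D-site, stood at 81.4, 66.4, 52.2 and 64.5 CPM on the normal diet and at 66.8, 74.3, 79.8 and 112 on high salt. The diets overlapped, with HS8 alone above normal diet library 1, and the log2 fold change of 0.33 (SE 0.20, adjusted p = 0.365) did not pass.

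Nfil3, the D-box repressor, stood at 12.5, 16.3, 23.5 and 34.7 CPM on the normal diet and at 8.59, 8.29, 7.84 and 9.17 on high salt. The normal diet libraries ranged widely and the high salt libraries sat together below all of them. The log2 fold change was -1.36 (SE 0.29, edgeR adjusted p = 0.0597), just outside the threshold. Normal diet library 4, the library with the high acute phase and neutrophil RNA, was the highest for Nfil3, and without it the log2 fold change was -1.05 (adjusted p = 0.0436). Library 3 was second for Nfil3 and had the lowest acute phase sum of the normal diet group. Without normal diet libraries 1 and 2 the log2 fold change was -1.78 (adjusted p = 0.0132), and with DESeq2 it was -1.36 (adjusted p = 0.000513). Nfil3 passed the threshold in 5 of 16 alternatives, the others being those without normal diet library 1 (-1.56, adjusted p = 0.0427) and library 3 (-1.33, adjusted p = 0.0488), over a range of adjusted p-values from 0.000513 to 0.215.

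Rora, the RORE activator, stood at 16.3, 23.6, 29.1 and 19.4 CPM in the normal diet liver and at 41.8, 42.1, 37.2 and 31.2 on high salt. HS8 was the lowest of its group and still above normal diet library 3. The log2 fold change was 0.78 (SE 0.20, edgeR adjusted p = 0.0867). It passed with DESeq2 (adjusted p = 0.0137) and without normal diet library 3 (0.93, adjusted p = 0.0333) and in no other of the 16 alternatives, whose adjusted p-values reached 0.278.

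The repressors of CLOCK and BMAL1 gave no call in liver. Ciart stood at 13.5, 16.1, 20.6 and 25.1 CPM on the normal diet and at 10.1, 10.2, 11.3 and 18.9 on high salt. HS5, HS6 and HS7 were below the normal diet range and HS8 was inside it. The log2 fold change was -0.57 (SE 0.26, edgeR adjusted p = 0.2396), and -0.83 (adjusted p = 0.206) without HS8.

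Bhlhe40 stood at 45.9, 87.2, 79.5 and 73.3 CPM on the normal diet and at 88.3, 85.3, 64.9 and 156 on high salt, again with HS8 highest. Its log2 fold change was 0.46 (SE 0.29, edgeR adjusted p = 0.375). Bhlhe41 was rare, at 1.28 to 3.61 CPM on the normal diet and 2.33 to 5.16 on high salt, and its log2 fold change was 0.58 (SE 0.37, adjusted p = 0.390). HS8 was the highest high salt library for Dbp, Ciart, Bhlhe40 and Bhlhe41, and also for Nr1d1, the REV-ERB alpha gene (63.9 CPM against 24.5 to 32.8 in the other 3).

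Sums of some cell markers differed between the diets in liver beside these values. The 4 hepatocyte markers, none at 0, summed to 42660 to 67300 CPM on the normal diet and 83300 to 100200 on high salt. Alb carried this sum, at 43960 ± 8323 and 74600 ± 7506 CPM (SD, n = 4 each, without overlap; log2 fold change 0.76, edgeR adjusted p = 0.190). Ttr (0.28), Apoa1 (-0.15) and Cps1 (-0.18) overlapped, so 2 of the 4 markers were positive and 2 negative, with none past the threshold. The 4 stellate cell and fibroblast markers summed to 55.8 to 110 and 125.7 to 134 CPM, mostly from Dcn (63.2 ± 17.1 and 92.4 ± 2.30). All 4 had a positive log2 fold change and none passed the threshold. The 12 acute phase genes summed to 8381 to 87280 CPM on the normal diet and 4797 to 6220 on high salt. All 12 had a negative log2 fold change (median -2.47, none past the threshold). Macrophage markers, 5 of 5 detected, overlapped at 113 to 188 and 71.1 to 135 CPM. In bulk tissue fewer cells of a type and less RNA per cell cannot be told apart, and the part of these markers in the values of the 8 factors was not tested.

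In kidney no factor passed the threshold, and no gene did (0.00% of 15847 genes in edgeR, with 318 genes, 2.01%, under an unadjusted p of 0.05; DESeq2 called 11 genes, none of the 8). The 8 adjusted p-values were all 0.9996. Ciart was the factor that did not overlap between the diets, against 6.88% of all genes (3.84% with high salt above). It stood at 1.25, 1.93 and 1.07 CPM on the normal diet and at 3.04, 2.14 and 2.55 on high salt. These are low counts, 22 to 33 per library on the normal diet and 34 to 68 on high salt, and the log2 fold change was 0.87 (SE 0.34, unadjusted p = 0.0338).

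The other kidney values overlapped. Dbp stood at 24.2, 26.7 and 23.8 CPM on the normal diet and at 40.8, 18.5 and 46.6 on high salt (log2 fold change 0.50, SE 0.32). Bhlhe40 stood at 32.5, 27.5 and 24.1 and at 42.0, 27.7 and 45.7 CPM (0.46, SE 0.24). High salt libraries 1 and 3 were above the normal diet range for both genes, and high salt library 2 was not. Tef stood at 82.2, 85.9 and 88.5 CPM on the normal diet and at 90.8, 81.4 and 112 on high salt (0.15, SE 0.20).

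Hlf, the factor that rose in liver, stood at 94.7, 69.1 and 59.2 CPM in normal diet kidney and at 96.7, 58.6 and 73.6 on high salt, a log2 fold change of 0.038 (95% interval -0.57 to 0.65). Rora stood at 55.9, 47.0 and 41.3 and at 52.6, 40.8 and 43.8 CPM (-0.073, interval -0.54 to 0.39). Library 1 was the highest of its diet for both genes. Nfil3 stood at 2.80, 2.05 and 3.78 and at 1.30, 2.65 and 2.77 CPM (-0.37, SE 0.39). Bhlhe41 lay between 1.00 and 3.16 CPM in the 6 kidney libraries (-0.24, SE 0.50). The liver log2 fold change, taken without its own error, lay outside the kidney interval for Hlf, Rora, Nfil3 and Ciart. It lay inside for Dbp, Tef, Bhlhe40 and Bhlhe41. The liver intervals of Hlf, Rora and Nfil3 overlapped their kidney intervals, and for Ciart the sign differed. Such a comparison is no test of a difference between the tissues, which was made separately.

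**Figure D2:**
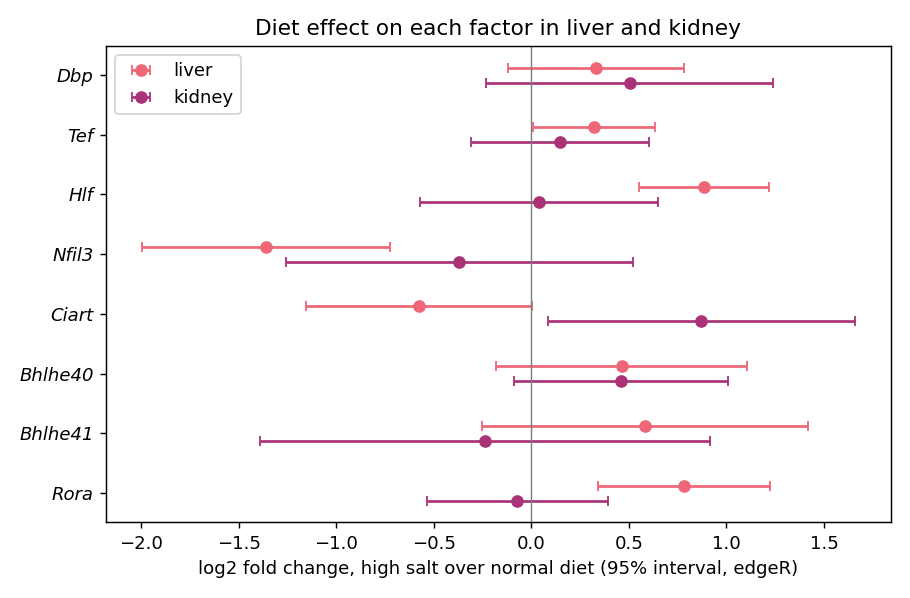
Log2 fold change of high salt over normal diet for each factor, with its 95% interval from edgeR, in liver and in kidney. The liver intervals of Tef, Hlf and Rora lie above 0 and that of Nfil3 below it, while among the kidney intervals that of Ciart alone excludes 0 before adjustment.

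The difference between the tissues was tested as an interaction in 1 fit of all 14 libraries, given here as the liver effect minus the kidney effect. No factor and no gene passed (0.00% of 16633 genes in edgeR, with 1681 genes, 10.1%, under an unadjusted p of 0.05; DESeq2 called 148 genes, none of the 8). Ciart had the largest value, -1.44 (SE 0.40, edgeR adjusted p = 0.270), since its fold change was negative in liver and positive in kidney. Its adjusted p-values over 19 alternatives ran from 0.0640 to 0.535. Rora had 0.87 (SE 0.29, adjusted p = 0.346) and Hlf 0.86 (SE 0.30, adjusted p = 0.378), and these 3 of 8 had an unadjusted p under 0.05. Nfil3 had -0.96 (SE 0.46, adjusted p = 0.498). Bhlhe41 had 0.83 (SE 0.64), Tef 0.18 (SE 0.25), Dbp -0.17 (SE 0.39) and Bhlhe40 0.015 (SE 0.42), and the signs of the last 2 changed under other settings. The diet response of the factors was thus not shown to differ between liver and kidney.

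On the normal diet the levels of most factors differed between the tissues, and 5 of the 8 factors were higher in liver and 2 were lower, against 65.1% of all genes called (32.9% higher and 32.2% lower in liver). For this comparison the libraries of both tissues were scaled together. Ciart was 19.3-fold higher in liver, at 22.1 ± 5.11 CPM (SD, n = 4) against 1.15 ± 0.371 in kidney (SD, n = 3), a log2 difference of 4.27 (SE 0.32, edgeR adjusted p = 2.53e-08). Nfil3 was 10.8-fold higher, at 25.4 ± 10.4 against 2.35 ± 0.713 CPM (3.43, SE 0.36, adjusted p = 7.05e-07). Dbp, Bhlhe40 and Tef were 3.88-fold, 3.71-fold and 2.65-fold higher in liver, each with every liver library above every kidney library.

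Hlf went the other way. It stood at 27.7 ± 2.40 CPM in liver and 60.6 ± 14.8 in kidney, 2.19-fold higher in kidney (log2 difference -1.13, SE 0.21, edgeR adjusted p = 0.000254). Rora was 1.497-fold higher in kidney, at 39.2 ± 5.88 against 26.2 ± 6.28 CPM, with the liver libraries all under the kidney ones (-0.58, SE 0.21, adjusted p = 0.0214). The Rora call was lost in 5 of 19 alternatives, with adjusted p-values up to 0.205: with only the normal diet groups fitted (0.0675), with the replicate block on libraries 1 to 3 (0.205), and without liver library 1 (0.0647), liver library 4 (0.0519) or kidney library 1 (0.0880). Bhlhe41 overlapped between the tissues, at 2.65 ± 1.15 and 1.59 ± 0.851 CPM (0.74, SE 0.45, adjusted p = 0.163), and passed without kidney library 2 (1.27, adjusted p = 0.0433).

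**Figure D3:**
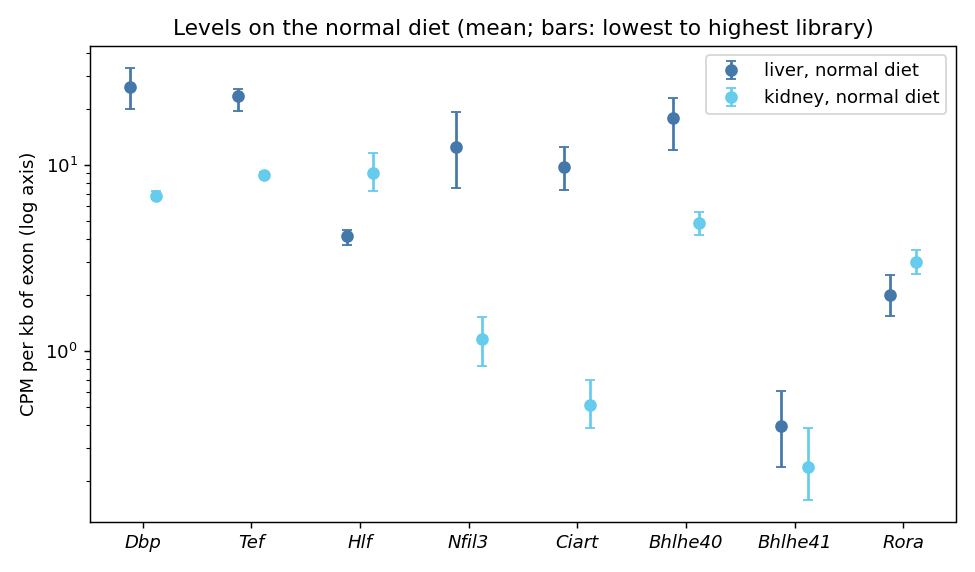
Level of each factor on the normal diet in CPM per kb of exon (log axis, libraries of both tissues scaled together), as the mean with bars from the lowest to the highest library (4 liver, 3 kidney). Ciart and Nfil3 are farthest apart, and Hlf and Rora are the factors whose kidney levels lie above the liver levels.

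Levels were divided by the joined length of all annotated exons of a gene, so that genes can be set beside each other. Which transcripts were present was not tested, and the order between genes depends on this length. Dbp and Tef led in normal diet liver at 26.3 ± 5.62 and 23.5 ± 2.77 CPM per kb (SD, n = 4), and these 2 did not separate beyond their spread. Bhlhe40 followed at 18.0 ± 4.57, then Nfil3 at 12.6 ± 5.12 and Ciart at 9.79 ± 2.26, each overlapping its neighbour. Hlf at 4.14 ± 0.359, Rora at 2.00 ± 0.480 and Bhlhe41 at 0.394 ± 0.171 closed the order, with no overlap between these 3. In normal diet kidney Hlf at 9.07 ± 2.21 and Tef at 8.86 ± 0.352 CPM per kb (SD, n = 3) overlapped at the top. Dbp at 6.79 ± 0.417, Bhlhe40 at 4.85 ± 0.719, Rora at 3.00 ± 0.450 and Nfil3 at 1.16 ± 0.352 came next, and Ciart (0.510 ± 0.164) and Bhlhe41 (0.237 ± 0.127) came last. From Tef down no 2 neighbours in the kidney order overlapped.

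Because NFIL3 and the PAR bZIP proteins share the D-box, their RNA levels were set against each other per kb of exon. The sum of Dbp, Tef and Hlf was 8.18, 5.74, 3.70 and 2.46 times the Nfil3 level in normal diet liver libraries 1 to 4, and 12.9, 13.98, 14.4 and 15.1 times in HS5 to HS8. The ratio was above the normal diet range in every high salt library. In kidney it was 23.7, 29.8 and 15.1 on the normal diet and 62.0, 19.4 and 29.8 on high salt, with overlap between the diets. Hlf made up 7.02% to 8.99% of the PAR bZIP sum in normal diet liver, 8.88% to 13.4% in high salt liver and 27.0% to 43.3% in kidney. The ratio is a description built from the levels already given and no separate evidence, and its size depends on the exon lengths used.

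**Figure D4:**
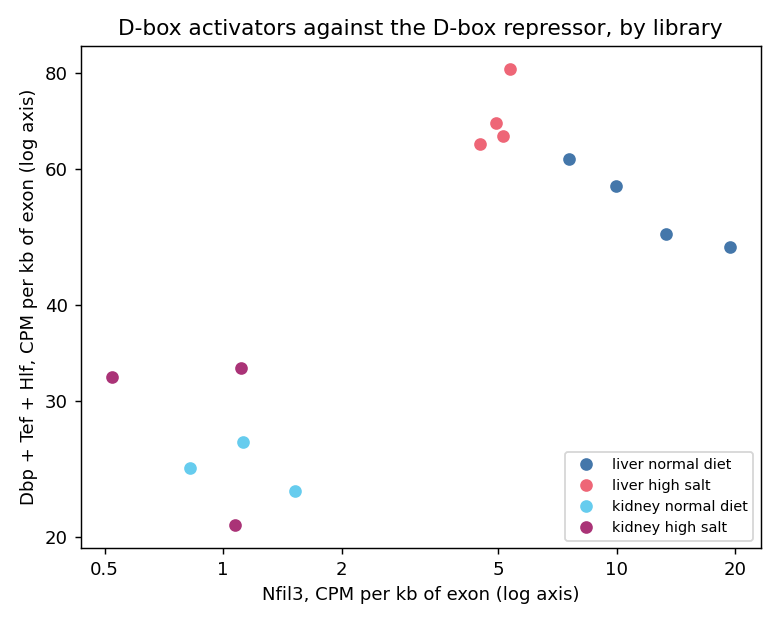
Sum of Dbp, Tef and Hlf against Nfil3, both in CPM per kb of exon on log axes, with 1 point per library coloured by tissue and diet. The 4 high salt liver points lie to the left of and above the 4 normal diet liver points, and the kidney diets are mixed.

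The factors were compared with each other across libraries after the mean of each tissue was subtracted from log2 CPM, as a description without a test, since libraries share a table and HS5 and HS6 are nearly the same. Hlf and Rora ran together (Pearson r = 0.869 over 14 libraries, 0.875 over the 8 liver and 0.946 over the 6 kidney libraries), and still did with each group's mean subtracted (0.609). Hlf and Nfil3 ran opposite (-0.791, and -0.460 with group means subtracted). Nfil3 and Ciart had r = 0.836 in liver and -0.761 in kidney. With group means subtracted r was 0.041 over the 14 libraries. That value pools both tissues, so it does not show whether the relation held within each. In normal diet liver both genes rose from library 1 to library 4. Dbp ran with Bhlhe40 in kidney (0.873) and less so in liver (0.390). Arntl, the gene for BMAL1, had r = -0.756 with Dbp and -0.881 with Tef in kidney, and -0.296 and -0.132 in liver. It had 14 to 58 counts per kidney library and 8 to 25 per liver library, so these values rest on few counts.

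**Figure D5:**
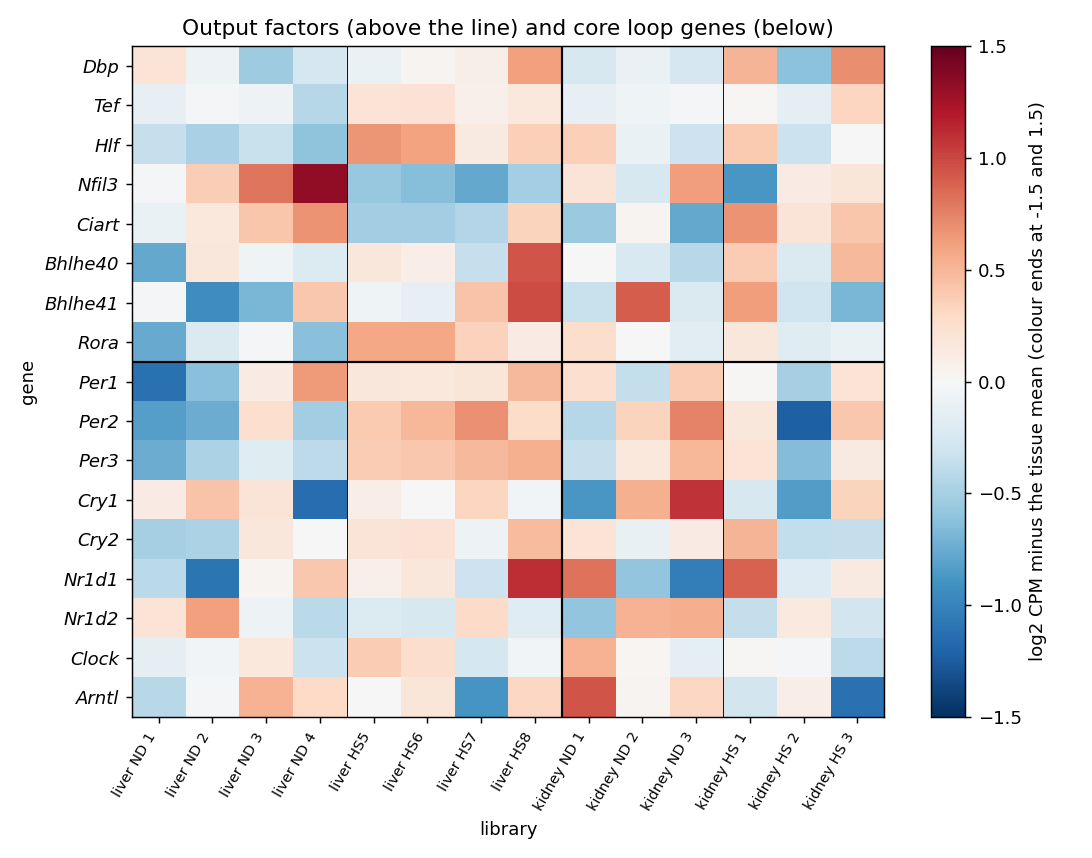
Log2 CPM minus the tissue mean for the 8 output factors (above the line) and 9 core loop genes (below it) in the 14 libraries, red above and blue below the mean. In liver Hlf, Rora and Per3 are below their mean in most normal diet libraries and above it on high salt, Nfil3 shows the reverse, and library HS8 is darkest red for Bhlhe40, Bhlhe41 and Nr1d1.

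Of the 10 core loop genes, 9 were tested in liver (Npas2 fell under the count filter) and Per3, a period gene, rose. It stood at 11.6, 13.8, 18.3 and 16.1 CPM on the normal diet and at 25.7, 26.3, 28.8 and 29.1 on high salt, a log2 fold change of 0.88 (SE 0.16, edgeR adjusted p = 0.0440). Of all genes tested in liver 1.00% passed, and the Per3 call was not checked under the alternatives. Per2 had 0.85 (adjusted p = 0.13) with normal diet library 3 inside the high salt range. The median over the 9 was 0.32, with 7 positive and 2 negative values, against -0.023 over all genes. Arntl, at 0.166 to 0.535 CPM in the 8 liver libraries, had -0.20 and Clock 0.17, and Per1, Cry1, Cry2, Nr1d1 and Nr1d2 lay between -0.19 and 0.50, none past the threshold. In kidney none of the 10 passed, Nr1d1 (0.39) was the 1 positive value of 10 and the median was -0.32. The interaction was positive for all 10 (median 0.62, none past the threshold, 3 with an unadjusted p under 0.05, against 10.1% of all genes), beside a median of 0.022 over all genes. The joint fit included Npas2, which had 0 to 9 counts per liver library, so its interaction rests on few liver counts. Npas2 had the largest value of the 10 (2.86) and was among the 3.

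Among 12 genes listed as targets of the PAR bZIP factors, 1 was called in liver, against 1.00% of all genes. That call was not checked under the alternatives. Cyp2b10, a drug-metabolising cytochrome P450, fell with a log2 fold change of -2.38 (SE 0.39, edgeR adjusted p = 0.0321), from 13.8 ± 6.12 to 2.64 ± 0.997 CPM (SD, n = 4 each), with no overlap. Por, the electron donor of the P450 enzymes, went from 316 ± 17.5 to 229 ± 41.6 CPM without overlap (-0.46, adjusted p = 0.180). Alas1, the rate-limiting enzyme of haem synthesis (-0.18), and Cyp7a1, the rate-limiting enzyme of bile acid synthesis (-0.12), overlapped widely. Cyp2a5 had -1.28 in liver (adjusted p = 0.0867) and 1.98 in kidney (adjusted p = 0.9996), though its reads can be split with its close copy Cyp2a4. The acyl-CoA thioesterase genes Acot2 (0.87, adjusted p = 0.1295), Acot3 (2.10, adjusted p = 0.0853) and Acot4 (0.86, adjusted p = 0.161), Acot3 and Acot4 being named after their values were seen, had positive values without overlap. The list had 7 positive and 5 negative values in liver with 7 of 12 under an unadjusted p of 0.05, against 21.2% of all genes, and its median was 0.12. Cyp2a4 was among the 7 (7.18, edgeR adjusted p = 0.133) through HS8 alone. It had 254 CPM there, against 0.240 to 1.28 in the other high salt libraries. Cyp2a5, Acot2, Acot3 and Acot4 were also among the 7, so closely related genes made up much of that count. In kidney 10 were tested, none was called and the median was 0.15.

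The other clock lists gave no call for diet in either tissue. The 9 clock kinases and ubiquitin ligase genes had medians of 0.044 in liver and -0.035 in kidney. The 8 other rhythmic liver genes had medians of -0.050 in liver and, over 7 tested, -0.089 in kidney, with Usp2, a direct clock target, at 0.054 and 0.12. The 7 clock-controlled salt and water genes had medians of 0.26 over 5 tested in liver and -0.30 in kidney, where 6 of 7 values were negative.

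The transcripts most like Dbp and most like Nfil3 were ranked across the 14 libraries, among 5199 genes of at least 10 CPM in each tissue, with tissue means subtracted. This ranking is a description without a test. Picking the largest of so many values over few libraries, with HS5 and HS6 nearly the same, gives high r by itself. Those nearest Dbp were Tubb5 (r = 0.818), Nop53 (0.801), Anxa4 (0.767), Bcar1 (0.766) and Aldh2 (0.750). Those nearest Nfil3 were Slc22a5 (0.866), Creld2 (0.846), Csrp1 (0.843), Manf (0.835) and Pim3 (0.814), and taken singly by tissue, liver then kidney, Manf had 0.818 and 0.960, Pim3 0.882 and 0.837, Csrp1 0.906 and 0.619, Slc22a5 0.957 and 0.512 and Creld2 0.965 and 0.264.

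Overlapping genes touch some of these counts. In GENCODE M21 (GRCm38) the exons of Dbp (chromosome 7, 45705088 to 45710203) share 539 bases with Sphk2 on the opposite strand, and Dbp counts were not whole in any library, as estimated counts are where reads are shared. Sphk2 itself had log2 fold changes of 0.072 in liver (adjusted p = 0.885) and 0.14 in kidney. Bhlhe41 (chromosome 6, 145858243 to 145865558) shares 1280 of its 6720 exon bases with Gm43909, and opposite-strand transcripts share 193 bases with Tef (chromosome 15, 81802421 to 81826863), 118 with Bhlhe40 (chromosome 6, 108660629 to 108666925) and 82 with Rora (chromosome 9, 68653786 to 69388246). Hlf (chromosome 11, 90336536 to 90390895), Nfil3 (chromosome 13, 52967209 to 52981073) and Ciart (chromosome 3, 95878503 to 95882251) share no exon base with another gene, yet Ciart counts were not whole in any liver library. Whether counting used the strand is not given in the sources used here, so reads from such pairs cannot be told apart.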

How the data were processed

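RNA libraries were made from total RNA with a SMARTer mRNA kit, per the labels' protocols. The authors deposited expected counts per gene, estimated by expectation maximisation in Partek and not normalized, per the file headers and names. A second table per tissue, also deposited by the authors, gives a scaled signal per gene with no statement of the method. In kidney that table comes from another quantification with more genes. Partek 7.0, STAR 2.5.3a, DESeq2 and the mm10 build are named in the submitters' processing notes, with no role given. The annotation release and filters are not given in the sources used here.

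Expected counts were rounded and tested with edgeR 4.0.16 in R 4.3.3 (TMM, filterByExpr, quasi-likelihood, Benjamini-Hochberg over all genes, threshold 0.05), by diet within each tissue, and in 1 fit of 14 libraries over the 17600 shared genes for the interaction and the tissue difference. Standard errors were taken from the fold change and its F value. CPM uses TMM library sizes, and per kb values use the joined length of all exons of a gene in GENCODE M21. Log2 CPM used a prior count of 2. The fits were tested on simulated counts. Replicate spread (edgeR's common coefficient of variation, 0.314 for liver, 0.30 for kidney) limits precision more than depth does. Unused per-sample columns numbered 0.

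Genes named are the 8 factors, the 10 core loop genes, Por, Alas1, Cyp7a1 and Usp2, and the 5 genes most like Dbp and the 5 most like Nfil3. From the other lists some genes called in a comparison, the tissue difference included, are named, at most 6 per list, and others are not. Acot3, the markers Alb, Ttr, Apoa1, Cps1 and Dcn, and genes overlapping a factor are named outside this rule. A further list gene is not reported here. The factors, lists, tests and alternatives were chosen with earlier results of these data known. Same-numbered kidney libraries of the 2 diets had deviations that correlated at 0.407, 0.373 and -0.0899 (liver against kidney on the normal diet: -0.195, 0.172 and -0.147), so the numbers were not taken as pairs. Alternatives were RLE scaling, DESeq2 1.42.0, other count filters, limma 3.58.1 on the normalized values plus 1, removal of mitochondrial genes, HS5 and HS6 summed, normal diet liver libraries 1 and 2 left out, the replicate block, only the normal diet groups in the fit and each library left out in turn.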

Additional observations from a re-analysis of the deposited data

Results flagged for a closer look

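In high salt liver, Ciart was at 18.9 CPM in HS8, far from the 10.1 to 11.3 of the other 3 libraries relative to the range of the group. Nr1d2, the REV-ERB beta gene, was at 87.3 CPM in HS7 against 58.0 to 61.2 in the other 3. These were 2 of 36 liver gene groups examined for a library standing apart, and chance gives about 1.8.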

How the results depend on the processing

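All 8 factors kept their direction in liver in the 16 alternatives and between tissues on the normal diet in 19. The 152 calls among all liver genes depended on the libraries and the tool. There were 1122 with DESeq2, 12 with HS5 and HS6 summed, 52 without normal diet libraries 1 and 2, and 12 to 765 with 1 library left out (12 without HS6, 18 without HS5, 32 without HS8, 39, 41, 765 and 409 without normal diet libraries 1, 2, 3 and 4). The cause was not tested. Called factors numbered 3 (Hlf, Nfil3 and Rora) with DESeq2 (7.42% of all genes called) and without normal diet library 3 (4.94%). They numbered 2 without normal diet library 4 (2.68%). None was called with HS5 and HS6 summed (0.0779%) or without normal diet library 2 (0.265%), HS5 (0.118%), HS6 (0.0779%) or HS8 (0.211%). In kidney edgeR called 0 genes (318 at an unadjusted p under 0.05), DESeq2 called 11, and the replicate block gave 0. The interaction gave 0 (1681 at an unadjusted p under 0.05), 148 with DESeq2, and 0 to 7 with 1 library left out (7 without HS7, 3 without normal diet liver library 4 and 1 without library 2). The tissue difference gave 10823 genes, 9171 with only the normal diet groups fitted, and 7738 with the replicate block on libraries 1 to 3, a fit of the normal diet groups that also leaves out liver library 4, so the part of the block alone was not tested. Of the 8 factors Rora lost its call between tissues in both of these fits and the other calls held.

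Small values changed sign. With 1 library left out the kidney log2 fold change ran from -0.17 to 0.25 for Hlf, from -0.74 to 0.28 for Bhlhe41 and from -0.18 to 0.0513 for Rora, and the interaction from -0.47 to 0.0679 for Dbp and from -0.29 to 0.18 for Bhlhe40. The Bhlhe40 interaction was also -0.0488 with RLE scaling and with DESeq2 and -0.01905 without mitochondrial genes. Bhlhe41, Ciart and Nfil3 in kidney rest on 21 to 78 counts per library, which limits their precision.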
